A study of Mus musculus with 2 samples.

Results

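Glucose enters a cell through carriers of the Slc2a family and is split in the cytosol by glycolysis, a chain of enzymes that ends in pyruvate or, through lactate dehydrogenase, in lactate. The 10 genes described here cover that chain from the membrane to lactate. Slc2a1 (GLUT1) and Slc2a3 (GLUT3) are glucose transporters, Hk1 and Hk2 are the hexokinases that trap glucose as glucose 6-phosphate, and Pfkp is the platelet type of phosphofructokinase, the committed step. Aldoa, Gapdh, Pgk1 and Eno1 carry out the middle and lower steps, and Ldha reduces pyruvate to lactate. They were taken by gene symbol, as 10 of 32285 gene identifiers in the count matrices; 11 matrix entries carry these symbols, because Aldoa has a further identifier, which held 0 UMIs in both libraries. On build mm10 (GENCODE M21) all 10 are protein-coding genes. Slc2a1 lies at chr4:119108711-119137983 and Slc2a3 at chr6:122727809-122801640. Hk1 lies at chr10:62268855-62379908, Hk2 at chr6:82725025-82774454 and Pfkp at chr13:6579768-6648777. Aldoa lies at chr7:126795234-126800751, Gapdh at chr6:125161715-125166467 and Pgk1 at chrX:106187100-106203699. Eno1 lies at chr4:150236721-150248879 and Ldha at chr7:46841475-46855627. In effector T cells these genes are known to be induced by T cell receptor signals, Myc and Hif1a, whereas Tregs are known to rely less on glycolysis and more on oxidative metabolism.

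Tregs, the Foxp3-dependent CD4 T cells that restrain immune responses, were sorted from tumours of C57BL/6 mice aged 8 to 12 weeks and measured cell by cell in droplets, with tags at the 3' ends of transcripts. The WT library came from animals labelled JMJD1CWT, and the cKO library came from animals labelled JMJD1CTregcKO, in which Jmjd1c, a gene of the JmjC histone demethylase family, is conditionally deleted in Tregs. The labels give no tumour model, number or sex of animals, Cre driver or deleted exons. With 1 library per genotype there is no replicate, so no difference has a replicate check, no p-value is given, and every interval covers counting error only.

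The libraries held 49063944 UMIs in 3905 barcodes (WT) and 37666195 UMIs in 4105 barcodes (cKO), and shared 2 barcode sequences. Xist was found in 97.1% of WT cells and 0.273% of cKO cells, and Y-linked genes in 0 WT cells and 74.6% of cKO cells, so sex and genotype cannot be told apart in any comparison below. Jmjd1c itself was measured at 98.7 CPM (UMIs of the gene per 1000000 UMIs of the class) in WT and 83.3 in cKO non-cycling Tregs. It was at 72.9 and 49.8 in cycling Tregs, at 60.8 and 61.3 in CD8 T cells, and at 106 and 71.7 in myeloid cells. Since the deleted exons are not given and 3' tags may lie outside them, this is no check of the deletion.

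Cells were placed in classes by UMIs of marker genes that are not among the 10 genes. A Treg had at least 1 UMI of Cd3e or Cd3g, at least 6 of Foxp3, Il2ra, Ikzf2 and Ctla4 together, at most 1 of Cd8a and Cd8b1, and at most 2 of Lyz2 and C1qa. Tregs with at least 2 UMIs of Mki67 and Top2a were called cycling, and those with 0 non-cycling. CD8 T cells had at least 3 UMIs of Cd8a and Cd8b1, and myeloid cells at least 10 of Lyz2 and C1qa. Of 3842 WT and 4026 cKO cells kept, 1962 and 2039 were non-cycling Tregs, 684 and 354 cycling Tregs, 213 and 407 CD8 T cells, and 103 and 321 myeloid cells; 4 cKO cells met the CD8 T and the myeloid rule. Median UMIs per cell were 7361 and 5924 in non-cycling Tregs against 18151 and 13619 in cycling Tregs.

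Part of the marker genes set the classes, so their levels there are a description. Foxp3, which defines Tregs, was seen in 30.9% of WT and 34.4% of cKO cells that met the Treg rule, and a Lyz2 or C1qa UMI in 4.78% and 16.9%. The 6 Treg markers summed to 7418 CPM (WT) and 9213 CPM (cKO) in non-cycling Tregs, where the 8 myeloid markers summed to 29.5 and 67.9 CPM. In the CD8 T class the Treg markers still summed to 3491 and 2662 CPM, and 180 of 213 WT cells (84.5%) against 198 of 407 cKO cells (48.6%) carried at least 6 UMIs of the Treg marker set. Cd4 was seen in 62.9% of WT and 21.6% of cKO cells of that class. In the myeloid class 60.2% of WT and 32.1% of cKO cells held a Cd3e or Cd3g UMI. Markers of other cell types were thus present in both classes, to a different extent in each library. Values are also given below for CD8 T cells under 6 Treg marker UMIs and for myeloid cells without a Cd3e or Cd3g UMI. Those CD8 T cells may still hold some Treg marker UMIs, and Cd4 was not used to leave cells out. In the whole CD8 T class NK markers summed to 133 CPM in WT and 120 CPM in cKO. The 5 dendritic markers summed to 495 and 286 CPM there, against 374 and 346 CPM in non-cycling Tregs and 98.3 and 88.6 CPM in the myeloid class. These sums rest on few genes. In the CD8 T class 3 of the 5 markers (WT) and 1 (cKO) reached 5 CPM, and in non-cycling Tregs 1 and 2. They are therefore no measure of dendritic cells in these classes.

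The promoters of the 10 genes differ in how many copies they hold of ACGTG, a core of sites bound by Hif1. It is also part of CACGTG, the E-box bound by factors such as Myc. The form GCGTG, which Hif1 can also bind, was not searched. Windows of 250 bases before to 50 bases after an annotated start were taken from RefSeq (GRCm38.p6); entries for 9 of the 10 genes matched, and Slc2a3 is named only. The motif was searched on both strands, so that a site on the other strand is read here as CACGT. Where both overlap, as in CACGTG, which reads the same on both strands, 1 site was counted. At least 1 site lay in a window of 7 of the 9 genes and at least 2 in a window of 4 of them (Ldha, Hk1, Hk2 and Pgk1), against 19.6% and 2.69% of 32851 windows of the same length. Taking the window with the most sites of each gene, as for the members, the shares over all 27025 genes were 21.8% and 3.09%. Ldha had 3 sites, a number reached by 0.414% of windows, and Pfkp and Eno1 had 0 ACGTG sites in any window. Among the Ldha sites 2 were CACGTG, which no window of another member held. Shown are the window with the most sites (Ldha), both single-window genes with 2 sites (Pgk1 and Hk2), and Gapdh, the member with the most UMIs, whose only site lies downstream of its start, near the end of the window. Capitals mark the motif, and each sequence runs 5′ to 3′ on the strand of its gene.
Ldha, chr7:46845554-46845853, plus strand: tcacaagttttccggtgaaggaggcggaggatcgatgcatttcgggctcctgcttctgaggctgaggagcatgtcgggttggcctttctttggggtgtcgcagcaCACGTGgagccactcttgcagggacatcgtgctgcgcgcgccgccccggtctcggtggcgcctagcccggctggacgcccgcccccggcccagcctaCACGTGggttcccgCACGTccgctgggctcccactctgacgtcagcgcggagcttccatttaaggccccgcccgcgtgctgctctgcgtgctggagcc
Pgk1, chrX:106186850-106187149, plus strand: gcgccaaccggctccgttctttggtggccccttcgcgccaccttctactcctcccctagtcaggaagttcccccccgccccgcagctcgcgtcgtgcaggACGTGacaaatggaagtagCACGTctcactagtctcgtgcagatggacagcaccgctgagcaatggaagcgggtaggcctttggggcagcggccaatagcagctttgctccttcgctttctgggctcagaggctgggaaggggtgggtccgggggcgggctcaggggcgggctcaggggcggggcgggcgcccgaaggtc
Hk2, chr6:82774405-82774704, minus strand: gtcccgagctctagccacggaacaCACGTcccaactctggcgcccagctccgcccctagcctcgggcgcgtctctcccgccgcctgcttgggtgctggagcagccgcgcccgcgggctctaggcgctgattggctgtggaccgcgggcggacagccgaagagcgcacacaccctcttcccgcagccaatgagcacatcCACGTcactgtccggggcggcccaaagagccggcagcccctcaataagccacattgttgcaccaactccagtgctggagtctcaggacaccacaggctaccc
Gapdh, chr6:125165724-125166023, minus strand: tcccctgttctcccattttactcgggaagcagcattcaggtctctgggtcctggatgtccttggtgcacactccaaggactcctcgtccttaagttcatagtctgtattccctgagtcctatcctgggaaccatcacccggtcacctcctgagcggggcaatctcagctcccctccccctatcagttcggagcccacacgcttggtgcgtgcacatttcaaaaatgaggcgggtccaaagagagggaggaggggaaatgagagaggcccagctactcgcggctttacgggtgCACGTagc
A match describes letters only. No readout of binding was collected, and the counts below are the only measurement of these genes.

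Summed over the 10 genes, UMIs were 15% to 25% more frequent in the cKO library in 3 classes. They took 6707 CPM in WT and 7700.3 CPM in cKO non-cycling Tregs, a ratio of 1.15 (95% interval 1.14 to 1.16). In cycling Tregs the sums were 7909 and 9142 CPM, a ratio of 1.16 (1.14 to 1.17). In the myeloid class they were 6657 and 8297 CPM, a ratio of 1.25 (1.22 to 1.27), and in the CD8 T class 6525 and 7254 CPM, a ratio of 1.11 (1.09 to 1.13). Gapdh alone gave 48.2% of these UMIs in WT and 51.3% in cKO non-cycling Tregs. Without it, the ratio of the other 9 genes was 1.08 (1.07 to 1.09) in non-cycling Tregs, 1.08 (1.07 to 1.10) in cycling Tregs, 1.17 (1.14 to 1.21) in the myeloid class and 0.998 (0.976 to 1.02) in the CD8 T class. The members did not move as a block, and the sum hides differences in both directions.

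**Figure D1:**
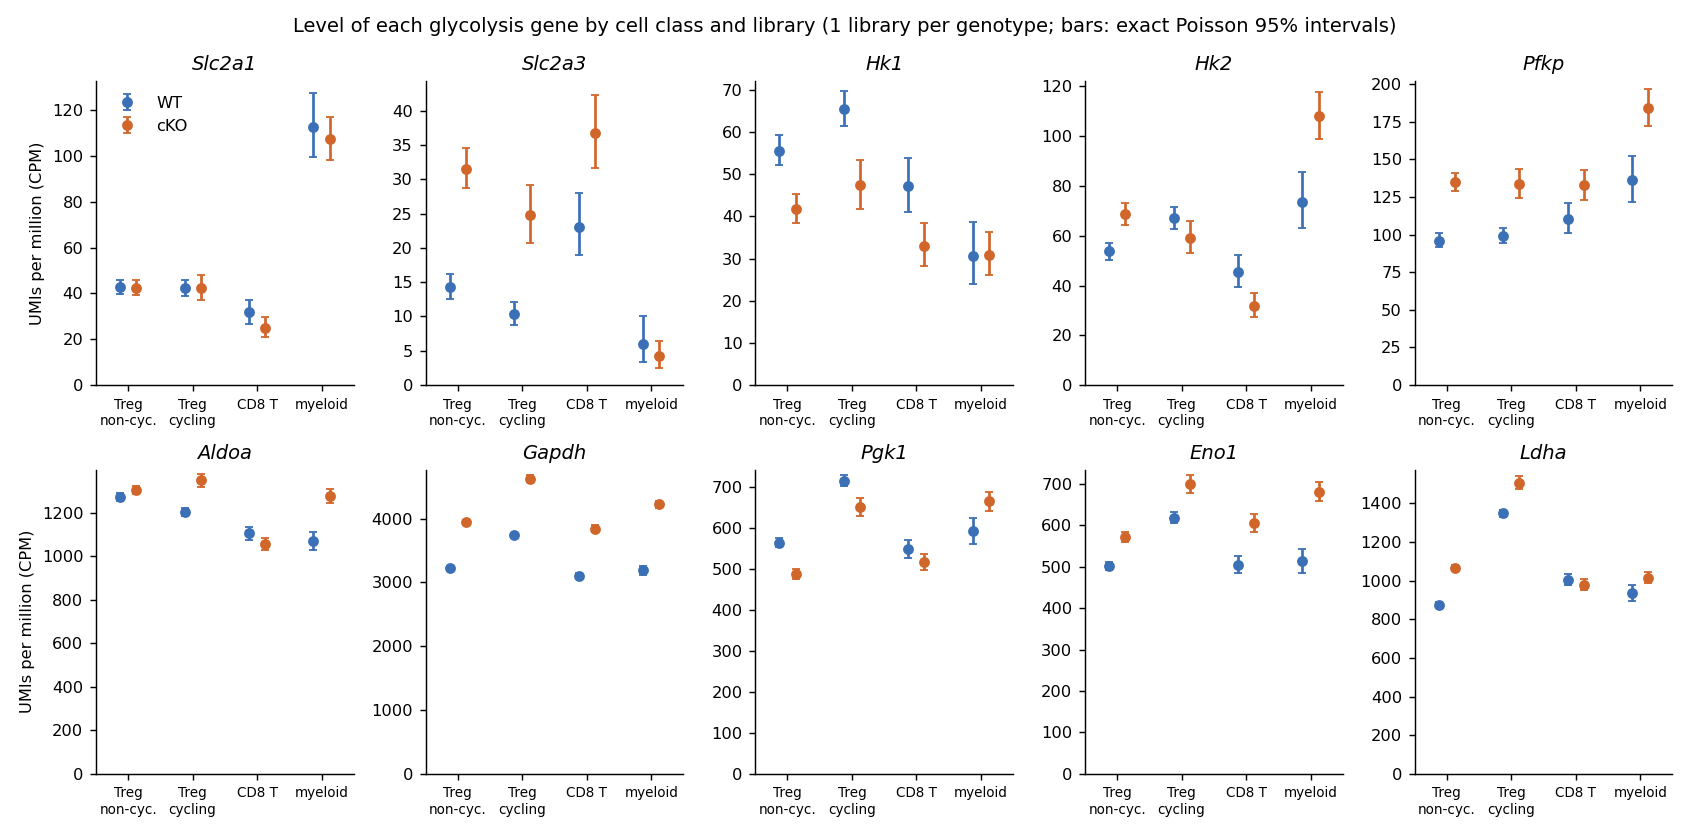
Level of each of the 10 genes, in CPM, in the 4 cell classes of the WT (blue) and cKO (orange) library; points are 1 library each and bars are exact Poisson 95% intervals. Slc2a3, Pfkp and Gapdh lie higher in cKO in both Treg classes, Hk1 and Pgk1 lie lower, and Slc2a1 stands highest in myeloid cells.

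The glucose transporters differed from each other: Slc2a3 had the largest ratio of the 10 genes in both Treg classes, and Slc2a1 a ratio near 1. Slc2a3, the high-affinity GLUT3, had 14.3 CPM (247 UMIs, 12.6 to 16.2) in non-cycling Tregs of WT. In those of cKO it had 31.6 CPM (450 UMIs, 28.7 to 34.6), a ratio of 2.21 (1.88 to 2.59). In cycling Tregs it was at 10.3 CPM in WT and 24.7 CPM in cKO, a ratio of 2.40 (1.89 to 3.05). Both cKO Treg values lay above both WT Treg values, without overlap of their intervals. Slc2a3 was the only member past 1.5-fold in either Treg class, where 4.05% (non-cycling) and 3.97% (cycling) of all genes tested were 1.5-fold higher, and 4.29% and 3.8% were 1.5-fold lower. Here and below a gene counts as past 1.5-fold on the scale log2((CPM + 5)/(CPM + 5)), which understates low genes. With cells thinned to 4000 UMIs before the classes were set, 316 WT and 200 cKO cycling Tregs were left. Hk1 (-0.65) and Hk2 (-0.72) were then also past 1.5-fold in cycling Tregs, lower in cKO, against -0.43 and -0.17 without thinning. The shares above are without thinning. That thinning raised the count of all genes past 1.5-fold in cycling Tregs, CD8 T and myeloid cells, as given at the end. On the same scale the Slc2a3 difference was 0.92 in non-cycling and 0.96 in cycling Tregs, and over 8 alternative ways of processing it stayed between 0.82 and 1.09 and between 0.76 and 1.19.

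Slc2a1, the transporter GLUT1, showed no such difference. Its levels were 42.7 CPM in WT and 42.4 CPM in cKO non-cycling Tregs, a ratio of 0.994 (0.891 to 1.11), and 42.4 and 42.3 CPM in cycling Tregs, a ratio of 0.999 (0.857 to 1.16). The share of Slc2a3 among UMIs of both transporters was 25.1% (22.4 to 27.9) in WT and 42.7% (39.6 to 45.7) in cKO non-cycling Tregs. It was 19.6% and 36.9% in cycling Tregs. This share does not depend on how libraries are scaled.

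Slc2a3 UMIs were found in few cells. Each cell was thinned to 4000 UMIs, and 78 shallower cells of WT and 284 of cKO were set aside. Of the rest, 5.41% of 1884 WT non-cycling Tregs (4.44 to 6.53) and 9.74% of 1755 cKO non-cycling Tregs (8.40 to 11.2) held a Slc2a3 UMI; without thinning the shares were 10.3% and 16.2%. In the thinned myeloid class the shares were 0 of 102 WT cells, which allows up to 2.94% (3 cells of that total), and 0.984% of 305 cKO cells. The Treg shares thus lay above those in myeloid cells, whose median depth before thinning was 20642 UMIs in WT and 13877 UMIs in cKO, against 7483 and 6358 in non-cycling Tregs. For Slc2a1 the Treg shares were 14.8% in WT and 14.1% in cKO.

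The transporters also had opposite distributions over classes. Slc2a1 was highest in myeloid cells, at 113 CPM in WT and 108 CPM in cKO, which was 2.65-fold (2.29 to 3.05) and 2.53-fold (2.25 to 2.85) the level of non-cycling Tregs. The 4 Treg values followed between 42.3 and 42.7 CPM, with overlapping intervals, and the CD8 T class was lowest at 31.7 and 24.9 CPM. In CD8 T cells with few Treg marker UMIs (described below) Slc2a1 was instead at 45.1 CPM in WT (19 UMIs) and 16.9 CPM in cKO, a ratio of 0.374 (0.206 to 0.699). Slc2a3 was highest in cKO CD8 T cells (36.7 CPM) and lowest in myeloid cells, at 6.03 CPM in WT (14 UMIs) and 4.17 CPM in cKO (20 UMIs). Neighbours in that order overlapped except at the steps from WT CD8 T cells (23.1 CPM) to WT non-cycling Tregs and from these to WT cycling Tregs. In this myeloid class against non-cycling Tregs, 37.5% (WT) and 40.8% (cKO) of all genes tested were past 1.5-fold in either direction; Slc2a1 and Slc2a3 were so in both libraries, Hk1 in WT and Hk2 in cKO.

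The hexokinases went apart in non-cycling Tregs. Hk1, the form expressed in most tissues, had 55.6 CPM (52.1 to 59.2) in WT against 41.7 CPM (38.4 to 45.2) in cKO, a ratio of 0.751 (0.677 to 0.833). Hk2, the inducible form, was at 53.7 CPM (50.3 to 57.3) and 68.7 CPM (64.5 to 73.2), a ratio of 1.28 (1.17 to 1.40). The share of Hk2 among UMIs of both was 49.2% (46.9 to 51.4) in WT and 62.2% (59.8 to 64.6) in cKO. Neither gene's intervals overlapped between the libraries, and neither gene passed 1.5-fold.

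In cycling Tregs Hk1 was again lower in cKO, at 47.3 CPM against 65.5 CPM, a ratio of 0.723 (0.628 to 0.829). Hk2 was not higher there: it was at 67.0 CPM in WT and 59.1 CPM in cKO, a ratio of 0.882, whose interval ends at 0.9997. The Hk2 ratio in non-cycling Tregs was 1.45 times (1.25 to 1.69) that in cycling Tregs, and the interval of the same comparison for Hk1 was 0.877 to 1.23. The Hk2 share of both hexokinases was 50.6% and 55.5% in cycling Tregs. In cells with exactly 1 UMI of Mki67 or Top2a, Hk2 was at 58.0 CPM in WT and 76.1 CPM in cKO.

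Pfkp was higher in cKO in every class. In non-cycling Tregs it had 96.0 CPM (91.5 to 101) in WT against 135 CPM (129 to 141) in cKO, a ratio of 1.40 (1.31 to 1.498), and at 99.2 and 133 CPM in cycling Tregs, a ratio of 1.35 (1.23 to 1.47). The liver-type gene Pfkl, at 62.9 CPM in WT and 60.2 CPM in cKO non-cycling Tregs, had a ratio of 0.957 (0.875 to 1.05). Pfkp thereby made up 58.8% (56.9 to 60.6) of phosphofructokinase UMIs (Pfkp, Pfkl and Pfkm) in WT and 68.3% (66.6 to 70.0) in cKO non-cycling Tregs, and 57.1% and 69.1% in cycling Tregs. Among thinned non-cycling Tregs, 28.3% of WT and 38.3% of cKO cells held a Pfkp UMI.

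**Figure D2:**
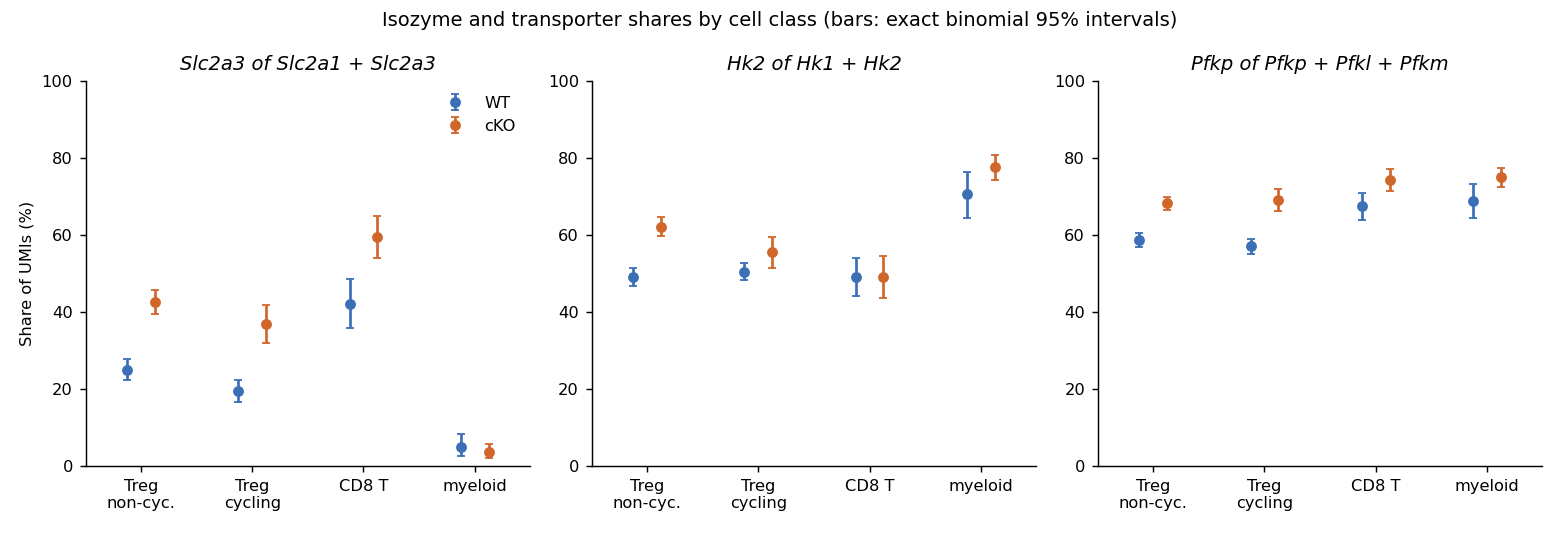
Share of UMIs, in percent, taken by Slc2a3 among both glucose transporters, by Hk2 among both hexokinases and by Pfkp among the phosphofructokinases, per cell class in WT (blue) and cKO (orange), with exact binomial 95% intervals. In non-cycling Tregs each share is higher in cKO (42.7% against 25.1%, 62.2% against 49.2%, 68.3% against 58.8%).

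Of the enzymes below phosphofructokinase, Gapdh, Eno1 and Ldha were moderately higher and Pgk1 lower in both cKO Treg classes, while Aldoa was nearly equal in non-cycling and moderately higher in cycling Tregs. Gapdh, glyceraldehyde 3-phosphate dehydrogenase, was at 3231 CPM in WT and 3949 CPM in cKO non-cycling Tregs, a ratio of 1.22 (1.21 to 1.24), and at 3739.8 and 4627 CPM in cycling Tregs, a ratio of 1.24 (1.22 to 1.26). Eno1, enolase, was at 502 and 573 CPM in non-cycling Tregs, a ratio of 1.14 (1.11 to 1.18), and at 618 and 700.4 CPM in cycling Tregs, a ratio of 1.13 (1.09 to 1.18). Eno1 has a near-identical copy, Eno1b, at 25.2 and 30.7 CPM in non-cycling Tregs, and reads can be split between the pair.

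In non-cycling Tregs Ldha had 876 CPM (863 to 891) in WT against 1066 CPM (1049 to 1083) in cKO, a ratio of 1.22 (1.19 to 1.24), and at 1349 and 1508 CPM in cycling Tregs, a ratio of 1.12 (1.09 to 1.15). Ldhb, whose enzyme favours the reverse reaction, was at 32.2 CPM in WT and 19.6 CPM in cKO non-cycling Tregs, a ratio of 0.608 (0.524 to 0.704). Ldha made up 96.5% of the UMIs of both in WT and 98.2% in cKO. Aldoa, the aldolase of most tissues, was at 1272 and 1307 CPM in non-cycling Tregs, a ratio of 1.03 (1.01 to 1.05), and at 1203 and 1349.8 CPM in cycling Tregs, a ratio of 1.12 (1.09 to 1.15).

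Pgk1, phosphoglycerate kinase, was lower in cKO, at 563 CPM (552 to 575) against 487 CPM (475 to 498) in non-cycling Tregs, a ratio of 0.864 (0.838 to 0.891). In cycling Tregs it was at 715 CPM in WT and 650.0 CPM in cKO, a ratio of 0.909 (0.875 to 0.944). Pgk1 is the only member on the X chromosome. In non-cycling Tregs the median log2 ratio was -0.04 over 140 X-linked genes of at least 20 CPM, without Xist and Tsix, and 0.03 over 4927 autosomal genes. Pgk1, at -0.21, lay below both medians, and the part of sex in it cannot be told apart from genotype. Outside the Tregs the direction of Pgk1 differed between classes. In the CD8 T class its ratio was 0.939 (0.889 to 0.993). In the myeloid class it was 1.12 (1.05 to 1.197), at 592 CPM in WT and 665 CPM in cKO. After thinning the myeloid log2 ratio was -0.17, against 0.17 without thinning. In CD8 T cells with few Treg marker UMIs (described below) the ratio was 2.56 (1.95 to 3.41). The cause was not tested.

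Counting only direction beyond counting error, 7 of the 10 genes were higher and 2 lower in cKO non-cycling Tregs (Slc2a1 was neither), where 27.7% of 8538 genes tested were higher and 28.8% lower. In cycling Tregs 6 were higher and 3 lower, against 22.9% and 22.5% of 8630 genes. Here and below, genes with more UMIs clear counting error at smaller differences. The 10 genes were not matched in level to all genes tested, so these shares are not like for like. Aldoa, with 21966 UMIs in WT non-cycling Tregs, counted as higher there at a ratio of 1.03. The median log2 ratio of the 10 genes was 0.23 in non-cycling and 0.16 in cycling Tregs, and that of all genes tested was -0.01 and -0.0036. Every member except Slc2a1 kept its direction in both Treg classes over 8 alternative ways of processing.

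**Figure D3:**
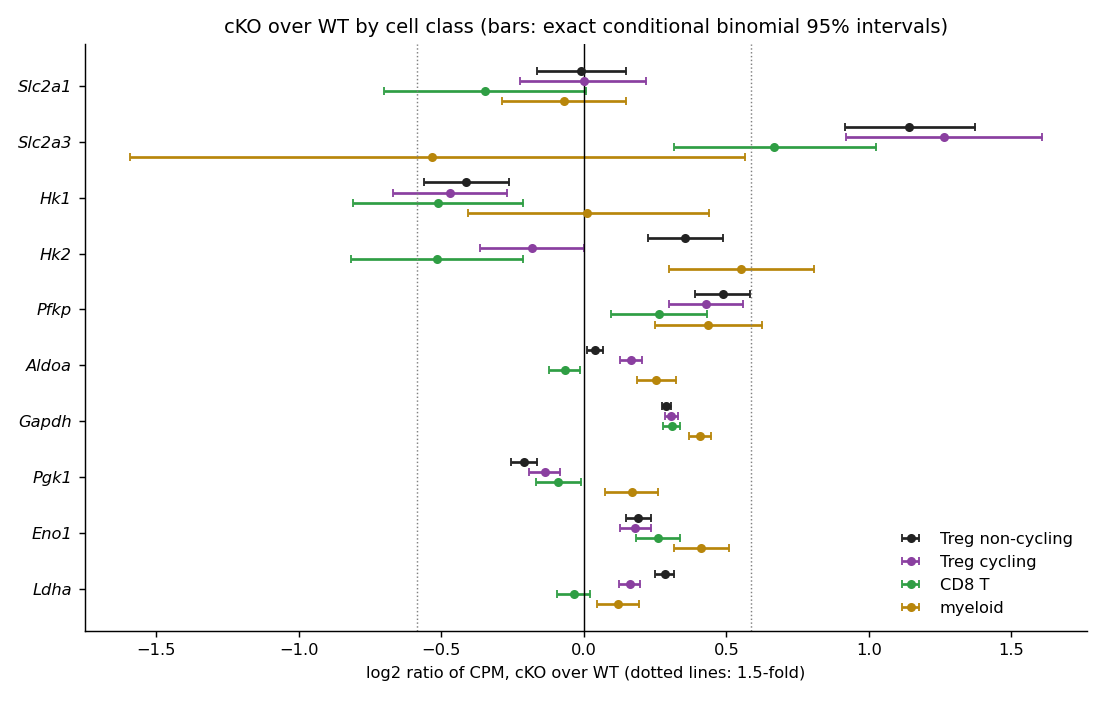
Log2 ratio of CPM, cKO over WT, for each gene in the 4 cell classes, with exact conditional binomial 95% intervals; dotted lines mark 1.5-fold. Drawn without the added 5 CPM, the Slc2a3 ratio stands past 1.5-fold in both Treg classes (2.21 and 2.40) and in the CD8 T class (1.59). Hk2 lies on both sides of 0 depending on the class.

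Outside the Tregs, the comparison depended on which cells were kept. In the myeloid class 7 of the 10 genes were higher beyond counting error and 0 lower, against 14.2% and 14.9% of 8559 genes, and 0 members were past 1.5-fold, against 9.43% of genes. Hk2 (0.52 on the log2 scale) passed it after thinning (0.71) and without the cells with the most UMIs (0.59). Hk2 was at 73.7 CPM in WT and 108 CPM in cKO, a ratio of 1.46 (1.23 to 1.75), Pfkp at 136 and 184 CPM, a ratio of 1.35 (1.19 to 1.54), Gapdh at 3188 and 4223 CPM, a ratio of 1.33 (1.29 to 1.36), and Eno1 at 513 and 682 CPM, a ratio of 1.33 (1.24 to 1.42). In the 41 WT and 218 cKO myeloid cells without a Cd3e or Cd3g UMI the ratios of these genes were 1.33 (1.02 to 1.77), 1.52 (1.21 to 1.91), 1.38 (1.32 to 1.44) and 1.46 (1.30 to 1.64). Hk3, the hexokinase of myeloid cells, named here after its values were seen, was at 39.2 CPM in WT and 121 CPM in cKO, a ratio of 3.10 (2.48 to 3.91). In non-cycling Tregs Hk3 was at 0.463 and 1.33 CPM.

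In the CD8 T class 4 of the 10 genes were higher and 4 lower beyond counting error, against 15.8% and 22.4% of 8746 genes, and 0 were past 1.5-fold, against 11.5% of genes. Slc2a3 passed it with scaling by the median ratio (0.59) and with pseudocount 1 (0.65), and Slc2a1 after thinning (-0.84). Slc2a3 was at 23.1 and 36.7 CPM, a ratio of 1.59 (1.25 to 2.04), Hk1 at 47.1 and 33.1 CPM, a ratio of 0.702 (0.570 to 0.862), and Hk2 at 45.6 and 31.9 CPM, a ratio of 0.700 (0.567 to 0.863). These directions were not clear of counting error in 32 WT and 207 cKO cells kept under a limit set after the data were seen. Those cells had under 6 UMIs of the Treg markers and at most 2 of Lyz2 and C1qa. There Slc2a3 was at 40.3 CPM in WT (17 UMIs) and 34.8 CPM in cKO, a ratio of 0.863 (0.5003 to 1.57), and both hexokinases were at 11.9 CPM in WT, from 5 UMIs each.

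The lower enzymes also differed between these cells and the whole class. In those 32 WT cells Gapdh was at 1541 CPM, Ldha at 337 CPM and Pgk1 at 135 CPM, against 3103, 1005 and 549 CPM in the whole WT class. In the 207 cKO cells they were at 3102, 745 and 346 CPM, against 3839, 979.7 and 516 CPM in the whole cKO class. The summed ratio of the 10 genes was 1.964 (1.85 to 2.09) in the cells with few Treg marker UMIs, against 1.11 in the whole class. Median depth in these cells was 14224 UMIs in WT and 7591 UMIs in cKO, and its part in the difference was not tested.

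Within each library, cycling Tregs had higher CPM of most of the lower glycolytic enzymes than non-cycling Tregs. The 10 genes summed to 1.18-fold (1.17 to 1.19) the non-cycling level in WT and 1.19-fold (1.17 to 1.1998) in cKO. Ldha had the largest ratio, 1.54 (1.51 to 1.57) in WT and 1.41 (1.38 to 1.45) in cKO, followed by Pgk1 at 1.27 (1.24 to 1.31) and 1.34 (1.28 to 1.39). Eno1 had ratios of 1.23 and 1.22, and Gapdh of 1.16 and 1.17. Ldha in WT was the only member past 1.5-fold, against 14.2% of 8759 genes in WT and 14.9% of 8573 genes in cKO in either direction. Its log2 ratio of 0.62 was 0.41 with cells thinned to 4000 UMIs before the classes were set and 0.52 as a mean over cells, both short of 1.5-fold. After that thinning Hk2 in WT, at 0.65, was past 1.5-fold instead.

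The genes at the entry of the pathway differed among themselves. Slc2a3 was lower in cycling Tregs, with ratios of 0.720 (0.584 to 0.886) in WT and 0.784 (0.643 to 0.9498) in cKO, and Slc2a1 had ratios of 0.993 (0.891 to 1.11) and 0.998 (0.855 to 1.16). Pfkp had ratios of 1.03 (0.961 to 1.11) and 0.991 (0.910 to 1.08). Aldoa, at 0.945 (0.927 to 0.964) and 1.03 (1.01 to 1.06), was near 1 in both libraries. Hk1 had ratios of 1.18 (1.08 to 1.29) in WT and 1.13 (0.978 to 1.31) in cKO, the latter with an interval that includes 1. Hk2 was higher in cycling Tregs of WT, with a ratio of 1.25 (1.14 to 1.37), and lower in cycling Tregs of cKO, with a ratio of 0.859 (0.757 to 0.974). The cKO ratio was 0.689 times (0.591 to 0.803) the WT ratio. Median UMIs per cell also differed between these classes, as given above. With every cell thinned to 4000 UMIs before the classes were set, the summed log2 ratio was 0.21 in WT and 0.17 in cKO, against 0.24 and 0.25 without thinning, and that of Hk1 in cKO was -0.30, against 0.16.

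**Figure D4:**
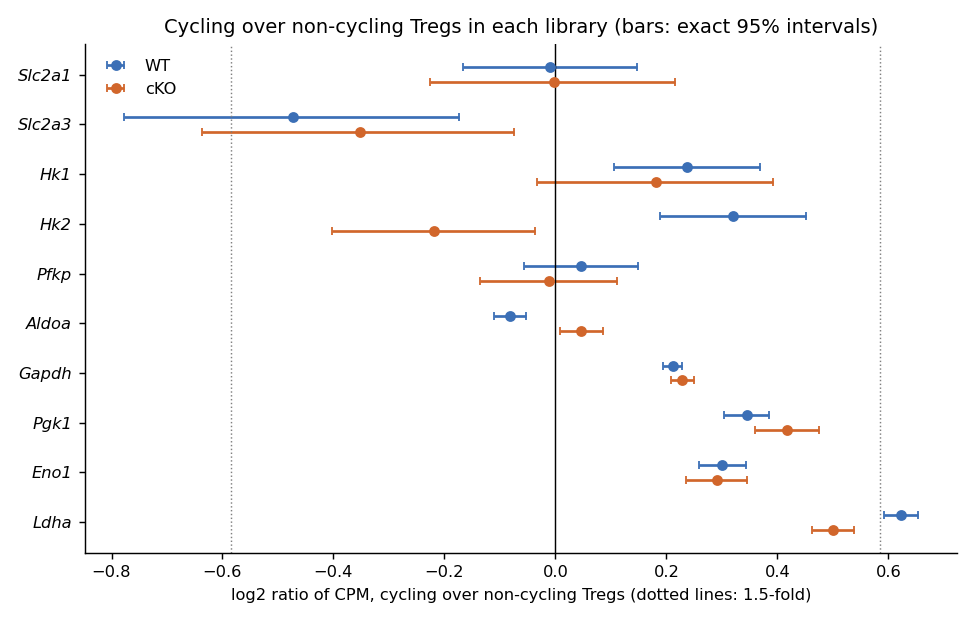
Log2 ratio of CPM, cycling over non-cycling Tregs, within the WT (blue) and the cKO (orange) library, with exact conditional binomial 95% intervals; dotted lines mark 1.5-fold. Ldha, Pgk1, Eno1 and Gapdh lie above 0 in both libraries, Slc2a3 lies below 0 in both, and Hk2 lies above 0 in WT (1.25-fold) and below 0 in cKO (0.859-fold).

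Other genes of the pathway, taken from a list of 21, gave 11 genes tested in non-cycling Tregs, with a median log2 ratio of 0.01. Of these, 0 were past 1.5-fold in either direction, where 4.05% of all genes tested were higher and 4.29% lower. Neighbouring steps differed in direction. Tpi1, triose phosphate isomerase, was at 469 CPM in WT and 355 CPM in cKO, a ratio of 0.757 (0.731 to 0.784), and Pgam1, phosphoglycerate mutase, at 269 and 231 CPM, a ratio of 0.858 (0.820 to 0.897). Pkm, pyruvate kinase, was at 1064 and 1298 CPM, a ratio of 1.22 (1.19 to 1.24), and Gpi1, glucose phosphate isomerase, at 453 and 456 CPM, a ratio of 1.01 (0.973 to 1.04). In cycling Tregs Tpi1 and Pgam1 had ratios of 0.791 and 0.839, Pkm 1.202 and Gpi1 1.06. Aldoc, an aldolase with few UMIs here, was at 29.9 CPM in WT and 32.5 CPM in cKO non-cycling Tregs.

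Of 18 genes of lactate and pyruvate handling and of known regulators, 14 were tested in non-cycling Tregs, with a median log2 ratio of -0.12. Past 1.5-fold were 2 higher and 1 lower, against 4.05% and 4.29% of all genes tested. The higher genes were Slc16a3 (MCT4, which exports lactate), at 117 CPM in WT and 196 CPM in cKO with a ratio of 1.67 (1.58 to 1.77), and Myc, at 16.9 and 33.0 CPM with a ratio of 1.956 (1.69 to 2.27). The lower gene was Ldhb. Hif1a was at 723 and 656 CPM, a ratio of 0.907 (0.883 to 0.932). The mitochondrial pyruvate carrier genes Mpc1 and Mpc2 had ratios of 0.923 and 0.910, and Txnip, which restrains glucose uptake, 1.22 (1.15 to 1.30). In cycling Tregs Slc16a3, Myc and Txnip were past 1.5-fold higher, with ratios of 1.58, 2.20 and 1.56, against 3.97% of all genes tested. Slc16a3 was also past 1.5-fold higher in the myeloid class, with a ratio of 1.68 (1.52 to 1.86), and had 1.16 in the CD8 T class. Myc had ratios of 0.737 (0.487 to 1.13) and 1.03 in these classes. Ldhb was past 1.5-fold lower in both, with ratios of 0.446 and 0.396.

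Of 20 hypoxia genes, 17 were tested in non-cycling Tregs, with a median log2 ratio of -0.19. Past 1.5-fold were 1 higher and 3 lower, against 4.05% and 4.29% of all genes tested. Egln3, a prolyl hydroxylase that itself responds to hypoxia, was at 18.3 CPM in WT and 33.2 CPM in cKO, a ratio of 1.81 (1.57 to 2.10). Fam162a was at 153 and 89.2 CPM, a ratio of 0.583 (0.545 to 0.624), Ero1l at 113 and 73.1 CPM, a ratio of 0.646 (0.598 to 0.697), and Vegfa at 12.6 and 6.03 CPM, a ratio of 0.478 (0.368 to 0.616). Mif, which is listed among the regulators and lies near the glycolysis genes in its behaviour across cells, was at 638 and 459.5 CPM, a ratio of 0.720 (0.698 to 0.742). The median log2 ratio of the hypoxia list was -0.13 in cycling Tregs. Of its 17 genes tested, 5 lay above 0 in non-cycling and 4 in cycling Tregs. Its median was also below 0 in the CD8 T class (-0.09) and the myeloid class (-0.07). The median of the 10 glycolysis genes lay above 0 in both Treg classes and the myeloid class (0.21), and at -0.05 in the CD8 T class. In the CD8 T class 0 of 17 hypoxia genes were past 1.5-fold higher and 6 lower, among the latter Fam162a (0.629) and Vegfa (0.453). There 11.5% of all genes tested were past it in either direction. In the myeloid class 0 of 17 were, against 9.43%.

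Across single cells, the lower enzymes varied together. Among non-cycling Tregs thinned to 4000 UMIs, the 10 pairs among Aldoa, Gapdh, Pgk1, Eno1 and Ldha had Pearson r of 0.33 to 0.49 over 1884 WT cells and 0.27 to 0.54 over 1755 cKO cells. Aldoa with Gapdh was the highest pair in both, at 0.49 and 0.54. The other 35 pairs, which involve Slc2a1, Slc2a3, Hk1, Hk2 or Pfkp, had a median r of 0.07 in WT and 0.06 in cKO. Those genes averaged under 1 UMI per thinned cell, and in counts that sparse a weak correlation is no finding.

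**Figure D5:**
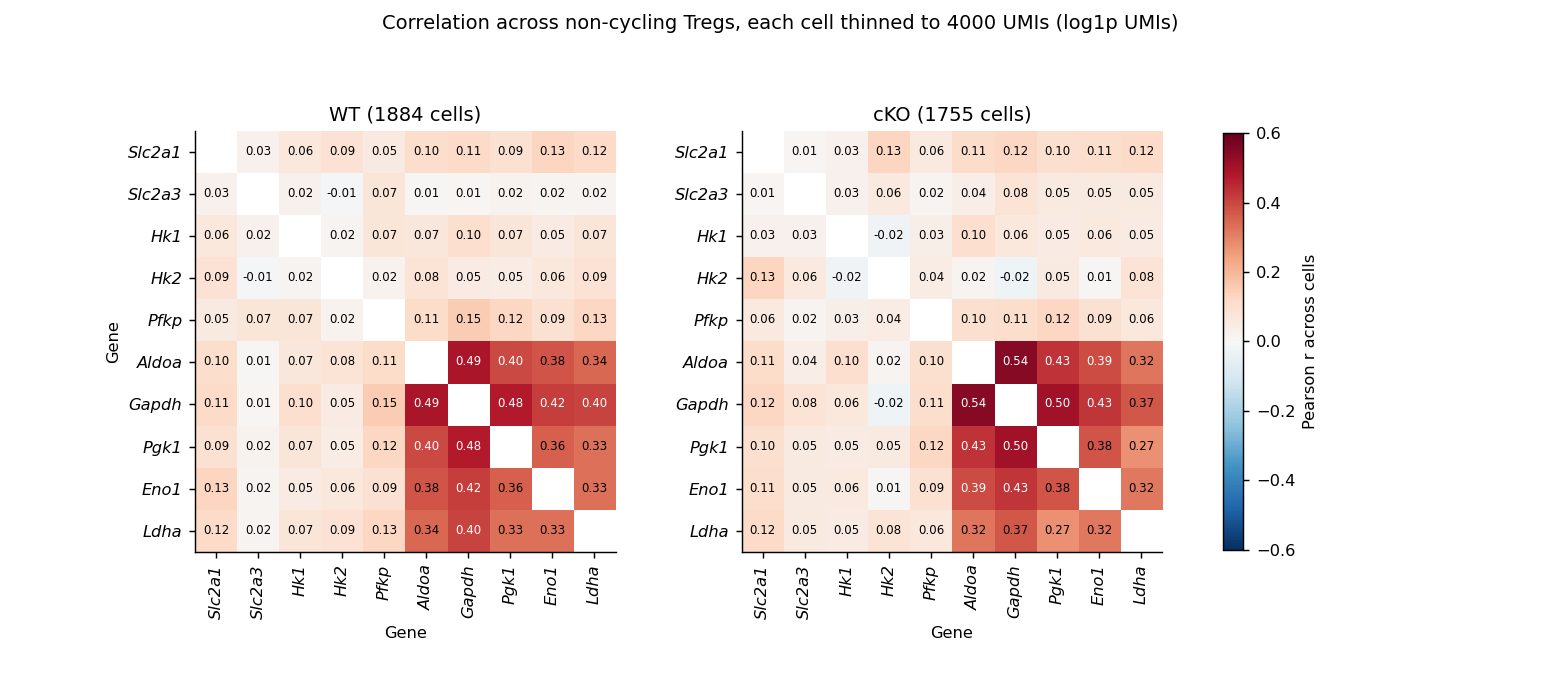
Pearson r between each pair of the 10 genes across non-cycling Tregs (log1p UMIs, each cell thinned to 4000 UMIs) in WT (left, 1884 cells) and cKO (right, 1755 cells). The block of Aldoa, Gapdh, Pgk1, Eno1 and Ldha holds the high values, up to 0.49 in WT and 0.54 in cKO.

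Summed over the 10 genes, a thinned non-cycling Treg held a median of 23 UMIs in WT and 26 in cKO, with 10th and 90th percentiles of 10 and 44 in WT and of 13 and 53 in cKO. The variance was 7.23 times the mean in WT and 9.04 times in cKO. The distributions overlapped over most of their range. For correlations the mean z-score of log1p UMIs over the 10 genes, which weights each gene equally, was used instead of the sum. Across non-cycling Tregs it correlated with the other glycolysis genes (r = 0.60 in WT and 0.62 in cKO) and with the hypoxia genes (0.39 and 0.31). It correlated little with Treg markers (0.05 and 0.12) or cycling markers (0.06 and 0.05), and at 0.22 and 0.20 with the UMIs of the cell before thinning. The mitochondrial share gave -0.13 and -0.12. All points of a library share its preparation, and cells are not replicates.

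Over 2492 genes with a mean of at least 0.2 UMI per thinned cell, those most like this mean z-score of the members were led by further glycolysis genes. They were ranked by mean r across non-cycling Tregs over both libraries. Tpi1 ranked highest (r of 0.52 in WT and 0.50 in cKO), then Pkm (0.45 and 0.50), Mif (0.44 and 0.38) and Pgam1 (0.39 and 0.35). Bnip3, Higd1a, Lgals1, Gpi1, Fam162a and Actb completed the leading 10, with mean r from 0.33 down to 0.25, and the median over all ranked genes was -0.01. Hif1a ranked 319 and Mxi1 2144. Tpi1, Mif, Pgam1 and Fam162a thus varied with the members across cells within each library and were lower in cKO, whereas Gapdh, Eno1, Ldha and Pkm were higher.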

How the data were processed

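Droplet single-cell RNA sequencing of sorted tumour Tregs gave 1 WT and 1 cKO library. The deposited files hold raw counts of UMIs per gene and barcode that the authors made with Cell Ranger 5.0.1 on build mm10, according to the submitters' processing notes. The annotation release was not given in the sources used here, nor were the use of intronic reads, filters before deposit or the handling of doublets. Of 32285 identifiers, 32158 matched GENCODE M21, from which coordinates come.

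Barcodes with at least 500 genes and under 10% mitochondrial UMIs were kept. No doublet caller was run; leaving out the 5% of cells with the most UMIs of each class and library was an alternative. UMIs were summed per class and library. Intervals are at 95% and cover counting error only: Poisson (exact) for CPM, conditional binomial (exact) for ratios and Clopper-Pearson (exact) for shares. With 1 library per group no test across samples exists. Counts over all genes took genes averaging 5 CPM or more and a fold of 1.5 after adding 5 CPM. For shares of cells and correlations, cells were thinned to 4000 UMIs with a fixed seed. Ratios of 2 ratios have intervals from the normal approximation to log counts.

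Named are the 10 genes in all 4 classes, listed pathway genes of at least 20 CPM in Tregs of both libraries, listed genes past 1.5-fold, and the 10 genes most like the members; examples are given. Members, lists and classes were chosen with earlier results of these data known. Alternatives were scaling by the median ratio, pseudocount 1, a minimum of 20 CPM or none, all barcodes, at least 1000 genes with under 5% mitochondrial UMIs, thinning before the class rule, stricter classes, and means over cells. Promoters came from RefSeq (GRCm38.p6). Calculations were tested on simulated data. Tools were Python 3.11.15, numpy 2.4.6, scipy 1.17.1, pandas 2.3.3 and matplotlib 3.10.9.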

Additional observations from a re-analysis of the deposited data

Results flagged for a closer look

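The Hk2 ratio of cKO over WT lay above 1 in non-cycling Tregs (1.28) and in the myeloid class (1.46) and below 1 in the CD8 T class (0.700), with each interval clear of 1. With 1 library per genotype the difference was not tested over samples. By counting error alone, the ratio in non-cycling Tregs was 1.83 times (1.46 to 2.29) that in the CD8 T class. In CD8 T cells with under 6 UMIs of the Treg markers, WT held only 5 Hk2 UMIs. The ratio there was 1.91 (0.759 to 6.18), an interval that includes 1, so the direction is not settled in those cells.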

How the results depend on the processing

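Log2 values in this section include the pseudocount. Of 500 values of single members under the alternatives, 413 stayed within the counting interval of the reported value, 76 left it without turning the direction of a called value, and 11 turned it. All Treg ratios of cKO over WT beyond counting error kept their direction, and Slc2a3 was past 1.5-fold in both Treg classes under every alternative run.

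The summed log2 ratio of the 10 genes in cKO over WT, 0.20 in non-cycling and 0.21 in cycling Tregs, was 0.17 and 0.18 with scaling by the median ratio, 0.22 and 0.24 without the cells with the most UMIs, 0.26 in non-cycling Tregs after thinning and 0.24 in cycling Tregs as a mean over cells. In the CD8 T class (0.15) it was 0.22 after thinning, 0.075 without the cells with the most UMIs, 0.069 as a mean over cells, and 0.97 in cells with few Treg marker UMIs. In the myeloid class (0.32) it was 0.18, 0.27, 0.19 and, without Cd3e or Cd3g UMIs, 0.38. For cycling over non-cycling Tregs (0.24 in WT, 0.25 in cKO) it was 0.30 and 0.32 with scaling by the median ratio, 0.21 and 0.17 after thinning, and 0.22 in WT as a mean over cells.

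Directions turned after thinning for Slc2a3 (-0.10), Hk1 (0.17) and Aldoa (0.0097) in the CD8 T class, for Aldoa (-0.084) and Pgk1 (-0.17) in the myeloid class, and for Aldoa in cycling over non-cycling cKO Tregs (-0.020). In CD8 T cells with few Treg marker UMIs, a setting chosen after seeing the data, they turned for Slc2a3 (-0.19), Hk1 (0.90), Hk2 (0.71), Aldoa (0.78) and Pgk1 (1.32). There the intervals of Slc2a3, Hk1 and Hk2 included 1, with 5 WT UMIs for each hexokinase. The cause was not tested.

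Counts of genes past 1.5-fold, 346 higher and 366 lower in non-cycling and 343 and 328 in cycling Tregs, 295 and 715 in CD8 T cells and 367 and 440 in myeloid cells, depended on several settings. With pseudocount 1 they were 593 lower in non-cycling and 554 lower in cycling Tregs, 464 higher in CD8 T cells, and 573 higher and 762 lower in myeloid cells. With a minimum of 20 CPM fewer genes are tested: 212 lower, 179 lower, 350 lower, and 224 higher and 215 lower in the same order. After thinning they were 760 higher and 885 lower in cycling Tregs, 830 and 1446 in CD8 T cells, and 1202 and 1218 in myeloid cells. In CD8 T cells with few Treg marker UMIs they were 1519 and 2154, and in myeloid cells without Cd3e or Cd3g UMIs 767 higher. No paired analysis was possible because each genotype has 1 library.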
